A study of Mus musculus with 33 samples.

Results

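Astrocyte markers were examined in the frontal cortex of mouse offspring whose dams, and later the dams with their pups, breathed filtered air or electronic cigarette aerosol. The markers are 8 genes chosen by symbol, with earlier results of these data known. All are textbook markers of this cell: *Gfap*, *Aqp4*, *Slc1a3*, *Slc1a2*, *Aldh1l1*, *Gja1*, *Aldoc* and *S100b*. They are 8 of the 23366 gene rows of each of the 2 count tables, and all 8 passed the filter on low counts in both, beside 15158 tested genes in females and 15293 in males. None of the 8 differed between exposure groups at an adjusted p below 0.01 in any of the 6 comparisons with the quasi-likelihood test of edgeR. The values closest to that limit were those of *Gfap* in females and *Gja1* in males, both in offspring exposed without nicotine.

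Astrocytes are the glial cells that contact synapses and blood vessels. They clear glutamate and potassium from the space around neurons, take up water and ions at their endfeet and pass small molecules to each other through gap junctions. *Gfap*, the glial fibrillary acidic protein of the astrocyte's intermediate filaments, is the gene most often used to score a reactive astrocyte, and in healthy cortex it is carried mainly by astrocytes of the surface layer and of white matter, with little in those of the grey matter. *Aldh1l1*, a folate enzyme, and *Aldoc*, a glycolytic aldolase, mark grey matter astrocytes more evenly. *Slc1a3* and *Slc1a2* encode the glutamate transporters GLAST and GLT-1, *Aqp4* the water channel of the endfeet, *Gja1* the gap junction protein connexin 43, and *S100b* a calcium-binding protein that oligodendrocyte lineage cells also make.

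The samples were C57BL/6 offspring of about 1 month, and no group carried a transgene or a deletion. Dams were exposed from pairing through pregnancy, and dams and pups together through nursing. The female table held 6 libraries of the filtered air group, 5 of the nicotine group, whose aerosol came from a liquid of 13 to 16 mg/mL nicotine, and 5 of the no nicotine group, whose aerosol came from a liquid free of it, and the male table held 6, 6 and 5. The study used 1 pup per litter, so the libraries of a group came from separate animals and litters, each a piece of frontal cortex that mixes all cell types. Total counts per library ran from 19150562 to 27513174 in females and from 17845672 to 24787955 in males. The sexes were sequenced in separate runs, so sex and run cannot be told apart and levels were not compared between them. The library labelled male nicotine replicate 21 went against its label, with 4632 counts of *Xist* and 1 count over 4 Y-linked genes, against 1 to 5 and 2140 to 3247 in the other 16 libraries labelled male. It was kept by its label. Without it 0 of the 8 markers were called in each of the 3 male comparisons, and its removal is given beside the male nicotine values below that had an unadjusted p below 0.05 and beside those of *Gfap*.

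Promoter sequence is shown for the markers closest to the threshold. The 250 bases before the start of the coding transcript are those of the 3 markers with the smallest p in a comparison with air, with the matches to 3 motifs in capitals. They were read from the mm9 genome, on the strand of the gene, for *Gfap* (chr11:102758446-102758695, minus strand), *Gja1* (chr10:56096856-56097105, plus strand) and *S100b* (chr10:75716348-75716597, plus strand).
Gfap: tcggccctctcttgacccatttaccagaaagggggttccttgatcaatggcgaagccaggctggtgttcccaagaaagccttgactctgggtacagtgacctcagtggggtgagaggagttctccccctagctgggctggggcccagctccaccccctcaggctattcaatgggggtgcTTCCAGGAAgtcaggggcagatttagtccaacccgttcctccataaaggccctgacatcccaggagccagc
Gja1: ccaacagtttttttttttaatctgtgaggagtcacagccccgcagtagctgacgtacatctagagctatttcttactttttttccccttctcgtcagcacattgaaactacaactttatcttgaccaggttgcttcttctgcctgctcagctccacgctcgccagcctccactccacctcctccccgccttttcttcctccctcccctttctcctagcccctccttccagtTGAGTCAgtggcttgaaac
S100b: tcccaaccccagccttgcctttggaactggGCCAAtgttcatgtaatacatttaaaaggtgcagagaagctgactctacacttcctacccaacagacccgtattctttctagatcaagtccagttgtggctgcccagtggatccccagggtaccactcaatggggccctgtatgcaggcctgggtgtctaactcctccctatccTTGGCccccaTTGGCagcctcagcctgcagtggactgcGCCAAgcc
The motifs, searched on both strands, were the STAT pattern TTCNNNGAA, the AP-1 pattern TGANTCA and the NFI half-site TTGGC, named for factors known to act on glial genes. The STAT pattern lay 71 bases before the start of *Gfap*, was also found 139 bases before that of *Slc1a3*, and occurred in 6.51% of the 19834 promoters of this length. The AP-1 pattern lay 19 bases before the start of *Gja1* and occurred in 5.63% of promoters. The NFI half-site, found in 43.4% of promoters, occurred 4 times before *S100b* (at 220, 46, 36 and 8 bases before the start), and in the promoters of *Slc1a2* and *Aldoc*. These are matches of letters alone, and no binding was measured.

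The *Gfap* gene spans chr11:102748650-102762226 and the *Gja1* gene chr10:56097106-56110225 in mm9. None of the 50-base windows in the coding transcripts of *Gfap* or *Gja1* occurred in a protein-coding transcript of a gene outside the 8 markers. Transcripts of other types, such as those of pseudogenes, were not searched. Among the 8 markers, such a window was found only in *Slc1a2*, for 0.392% of its windows. Exons of *Slc1a2* and *Aldh1l1* overlap a gene on the other strand (*Gm13872* and *Gm15756*), and whether the counting used strand is not given in the sources used here.

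All 8 markers were well above the counting limit in every library, from 1754 counts of *Aldh1l1* to 240382 of *Slc1a2*. Levels of different genes can be compared only per length, here as CPM (counts per 1000000 counts of the library, normalized by the trimmed mean of M-values) per 1000 exon bases. In the female air group *Slc1a2* stood highest with 669.5 ± 73.3 (SD, n = 6), followed by *Aldoc* with 462.1 ± 57.8. *Gja1* (188.2 ± 22.3) and *Slc1a3* (182.1 ± 18.1) came next, and the ranges of these neighbours overlapped. Exon bases were counted over all annotated transcripts, so the order can depend on the annotation. *Slc1a3* had 8537 such bases, while its coding transcripts held 4355 distinct 50-base windows. *S100b* had 127.4 ± 9.5 and *Aqp4* 89.9 ± 12.5 CPM per 1000 bases. *Gfap*, with 57.3 ± 14.9, was above *Aldh1l1* (23.9 ± 2.9) alone, and its range of 38.4 to 77.3 touched that of *Aqp4*, which began at 74.7. The order was the same in the male air group, where *Gfap* had 62.3 ± 9.0 and *Slc1a2* 671.0 ± 46.4.

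*Gfap* was the marker with the most uneven level. In the female air group its normalized CPM were 302, 229, 326, 162, 192 and 238 in replicates 1 to 6. With nicotine, females had 235, 266, 206, 278 and 300. With no nicotine, females had 344, 327, 313, 369 and 350. All 5 no nicotine libraries thus lay above all 5 nicotine libraries and 4 of them above every air library, while the nicotine libraries lay inside the range of air. The group means were 242 ± 63.0 (SD, n = 6) in air, 257 ± 37.03 (n = 5) with nicotine and 340 ± 21.7 (n = 5) with no nicotine.

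**Figure D1:**
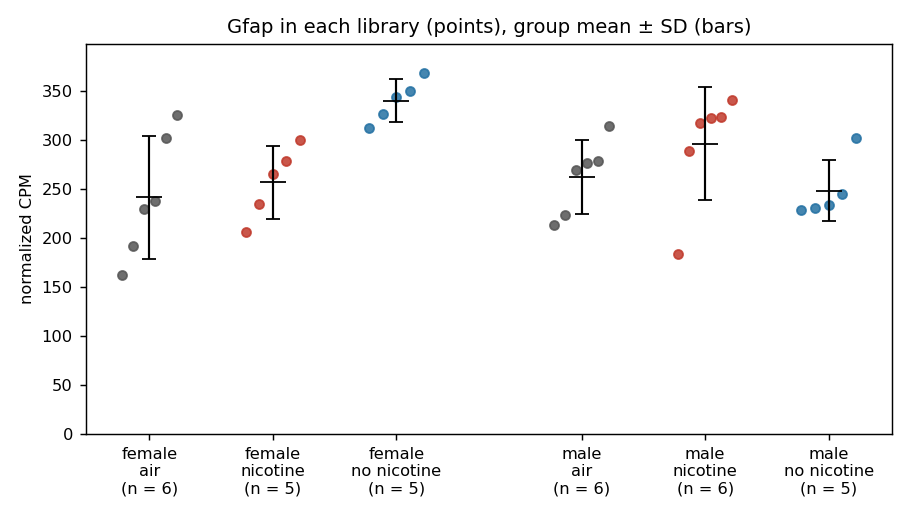
Normalized CPM of *Gfap* (vertical axis) in each of the 33 libraries (points) by sex and exposure, with the group mean and SD as bars. The 5 female libraries without nicotine sit between 313 and 369, above the 5 with nicotine (206 to 300), whereas the male groups overlap.

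Against air, *Gfap* in females without nicotine was higher by 0.50 on the log2 scale (SE 0.14, 95% interval 0.19 to 0.80), a fold of 1.41. The adjusted p of edgeR was 0.0181, which misses the threshold of 0.01. At that threshold 12.1% of all tested genes were called in this comparison. DESeq2, which called 17.1% of genes, gave *Gfap* an adjusted p of 0.00512, and limma-voom, which also called 17.1%, gave 0.00786, so the call rested on the tool. It also rested on single air libraries: without air replicate 3 the difference was 0.60 (edgeR adjusted p = 0.00501) and without air replicate 1 it was 0.57 (adjusted p = 0.00924), those being the libraries with the highest *Gfap* of the air group. With the cortical neuron marker score of each library as a covariate the *Gfap* difference was 0.15 (edgeR adjusted p = 0.932), and with the myelin marker score it was 0.73 (adjusted p = 0.390). With the nicotine group, the *Gfap* value against air was 0.09 (95% interval -0.21 to 0.39, edgeR adjusted p = 0.733), in a comparison where 4.29% of genes were called. Between the exposed groups, *Gfap* was lower with nicotine by a value of -0.41 (95% interval -0.72 to -0.09), at an unadjusted p of 0.0147 and an adjusted p of 0.574 with edgeR. Ranges that did not overlap, as for *Gfap* here, were found for 1.01% of genes in that comparison, and 0% of genes were called by edgeR, by DESeq2 or by limma-voom.

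In libraries labelled male the order of the groups was another one. The air group had *Gfap* CPM of 315, 277, 269, 214, 223 and 279 in replicates 30, 31, 33, 37, 38 and 39. With nicotine, males had 322, 324, 318, 183, 289 and 341 in replicates 15, 16, 17, 19, 21 and 22. With no nicotine, males had 234, 303, 231, 229 and 246 in replicates 2, 3, 4, 5 and 7. All 3 ranges overlapped, and in each exposed group 1 library stood apart, replicate 19 below the other nicotine libraries and replicate 3 above the other no nicotine libraries. The means were 263 ± 37.8 (n = 6) in air, 296 ± 57.8 (n = 6) with nicotine and 248 ± 31.05 (n = 5) with no nicotine.

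None of the male *Gfap* differences passed the test. With nicotine *Gfap* differed from air by 0.17 (edgeR 95% interval -0.09 to 0.44, adjusted p = 0.579), in a comparison where edgeR and limma-voom called 0% of genes and DESeq2 called 1.04%. Without nicotine it differed from air by -0.08 (-0.36 to 0.19, adjusted p = 0.702), where edgeR called 13.6% of genes, DESeq2 17.2% and limma-voom 15.2%. With against without nicotine the difference was 0.25 (-0.02 to 0.53, adjusted p = 0.288), where edgeR called 0.248%, limma-voom 0.386% and DESeq2 2.98%. Leaving out nicotine replicate 19 moved these nicotine values to 0.28 against air (edgeR adjusted p = 0.161) and 0.36 against no nicotine (adjusted p = 0.0317), and leaving out replicate 21, whose sex went against its label, gave 0.18 and 0.26. The male sign without nicotine was not stable, since with the myelin marker score of each library as a covariate it became 0.27, and the male value between the exposed groups -0.03.

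The change of *Gfap* without nicotine thus had opposite signs in the tables, and the difference itself was tested in 1 fit of all 6 groups over 15105 genes. The male minus female change of *Gfap* was -0.58 (SE 0.21, 95% interval -1.01 to -0.16) without nicotine, with an unadjusted p of 0.00803 and an edgeR adjusted p of 0.945, and 0.07 (-0.34 to 0.49, adjusted p = 0.974) with nicotine, or 0.08 without male nicotine replicate 21. For these differences edgeR called 0% of genes under either exposure, 4.91% of genes had an unadjusted p below 0.05 without nicotine and 6.47% with nicotine, and DESeq2 called 0% and 0.00662%. None of the other 7 markers had an unadjusted p below 0.05 there, and their male minus female values lay between -0.15 and 0.07 without nicotine.

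*Gja1*, the connexin 43 gene, had the smallest adjusted p of the 8 in males. Its CPM in the male air group were 657, 615, 645, 509, 579 and 582, with nicotine 667, 575, 584, 607, 604 and 595, and with no nicotine 669, 675, 707, 670 and 690. All 5 no nicotine libraries lay above all air and all nicotine libraries, although the means of 598 ± 53.9 (SD, n = 6) and 682 ± 16.0 (n = 5) differ by a fold of only 1.14. The log2 difference was 0.19 (SE 0.06, 95% interval 0.07 to 0.31) with an edgeR adjusted p of 0.0172, which misses the limit of 0.01. DESeq2 called it (0.18, adjusted p = 0.00766), limma-voom did not (0.20, adjusted p = 0.0136), and edgeR called it without air replicate 30 (0.22, adjusted p = 0.00834). Ranges without overlap were found for 12.4% of genes in that comparison. With the cortical neuron marker score of each library as a covariate the *Gja1* value there was 0.16 (edgeR adjusted p = 0.574). The myelin marker score gave 0.21 (adjusted p = 0.178). With nicotine *Gja1* was at 605 ± 32.4, 0.02 from air (-0.09 to 0.13) and -0.17 from no nicotine (-0.29 to -0.06, unadjusted p = 0.00581, edgeR adjusted p = 0.0873), with ranges apart as for 2.15% of genes. Without nicotine replicate 21 these *Gja1* values were 0.02 and -0.17 (adjusted p = 0.137 for the latter with edgeR).

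In females *Gja1* stood at 584 ± 69.4 in air, 627 ± 51.8 with nicotine and 661 ± 49.7 with no nicotine, and the 3 ranges overlapped. The value without nicotine, 0.18 (SE 0.08, edgeR adjusted p = 0.113), was close to the male one, with a male minus female difference of 0.01 (-0.20 to 0.21). Groups without overlap were found in females for 6.67% of genes with nicotine and 10.7% without nicotine against air, and in males with nicotine against air for 2.05%, in each case for 0 of the 8 markers.

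*S100b*, the calcium-binding protein gene, was at 189 ± 14.2 CPM in the female air group (168 to 204), 215 ± 28.9 with nicotine (194, 202, 217, 199 and 264) and 210 ± 6.90 with no nicotine (203 to 221). The nicotine value of 0.19 against air (95% interval 0.04 to 0.34) had an adjusted p of 0.0928, and its 1 library at 264 was replicate 6. Without that library the difference was 0.10 (edgeR adjusted p = 0.261). In males the S100b means were 188 ± 6.31, 191 ± 13.9 and 205 ± 13.1, and the no nicotine value of 0.13 had an adjusted p of 0.0688.

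*Aqp4*, the water channel gene, had 478 ± 66.6 CPM in the female air group, 468 ± 60.9 with nicotine and 479 ± 48.8 with no nicotine. In males it had 496 ± 43.2, 479 ± 24.4 and 452 ± 39.9, with all ranges overlapping. The largest value for *Aqp4* was -0.14 in males without nicotine (-0.27 to -0.002, unadjusted p = 0.0466, edgeR adjusted p = 0.132), and it turned to 0.05 with the cortical neuron marker score as a covariate. Of the 5 male libraries without nicotine, 2 lay below every air library for *Aqp4*.

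The glutamate transporter genes lay close to air. *Slc1a2* had 8806 ± 964 CPM in air, 8337 ± 1020 with nicotine and 8005 ± 1076 with no nicotine in females, and 8826 ± 610, 8141 ± 436 and 8092 ± 897 in males. Its 4 differences from air were all below 0, from -0.14 to -0.08, with adjusted p from 0.204 to 0.661. *Slc1a3* had 1554 ± 154, 1572 ± 99.5 and 1581 ± 103 in females and 1569 ± 78.3, 1500 ± 88.4 and 1658 ± 103 in males. Between the male exposed groups *Slc1a3* differed by -0.14 (-0.25 to -0.04, unadjusted p = 0.0117, edgeR adjusted p = 0.1197), with overlapping ranges, and by -0.15 (adjusted p = 0.167) without nicotine replicate 21. For the enzymes, *Aldh1l1* had group means from 101 to 115 CPM and *Aldoc* from 1288 to 1513 over the 6 groups, and none of their 12 comparisons had an unadjusted p below 0.05.

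**Figure D2:**
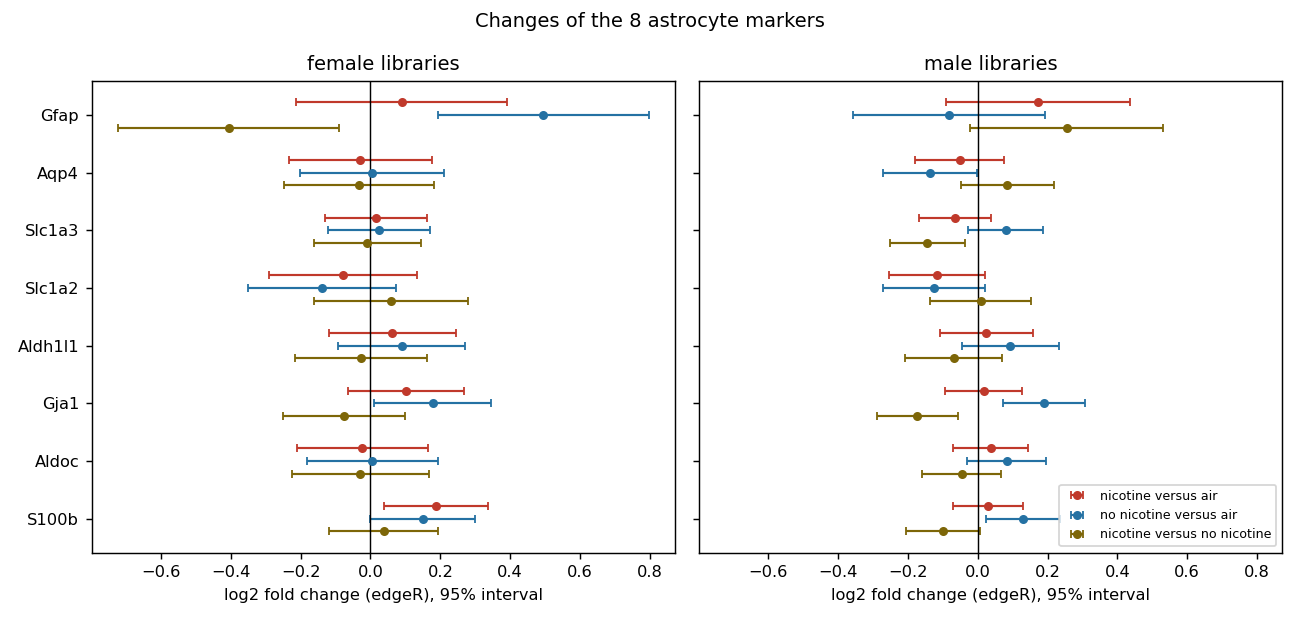
Log2 fold change of the 8 markers (horizontal axis, with the 95% interval of edgeR) in each comparison (colours) in females (left) and males (right). *Gfap* has the widest intervals, from 0.19 to 0.80 for females without nicotine, and the intervals of the other 7 genes are narrower.

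Against air, the unadjusted p of edgeR was below 0.05 for 1 of the 8 female markers under nicotine, where this held for 28.1% of all genes, and for 2 under no nicotine, where it held for 36.4%. Among males the counts were 0 of 8 (14.4% of all genes) and 3 of 8 (36%). Between the exposed groups 1 of 8 female (8.36%) and 2 of 8 male markers (20.1%) had such a p. These counts are near the background or below it in the comparisons with air. By the other tools, DESeq2 called 0 of the 8 in females with nicotine, where it called 8.7% of genes, and limma-voom also called 0, where it called 6.68%. The median log2 value over the 8 against air was 0.04 (nicotine) and 0.06 (no nicotine) for the female table and 0.02 and 0.08 for the male table, against 0.004, 0.009, 0.006 and 0.02 over all genes tested. In these bulk samples a change in the number of astrocytes and a change in RNA per astrocyte cannot be told apart.

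**Figure D3:**
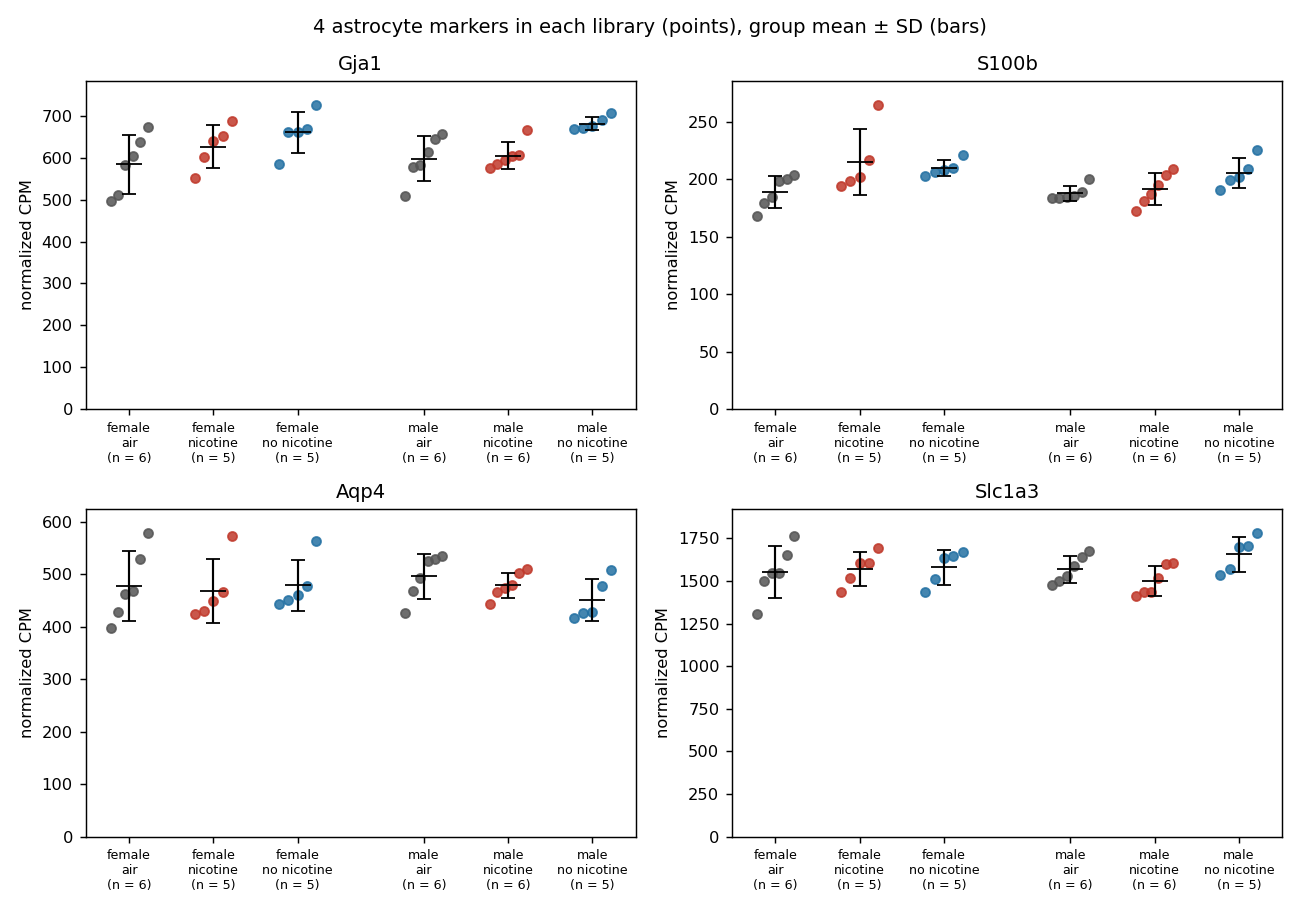
Normalized CPM (vertical axes, from 0) of *Gja1*, *S100b*, *Aqp4* and *Slc1a3* in each library (points) by sex and exposure, with the group mean and SD as bars. In males the 5 *Gja1* libraries without nicotine sit between 669 and 707, above the air and nicotine libraries, and the groups of the other 3 genes overlap.

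*Gfap* also stood apart in its spread. Within groups, the SD of log2 CPM of *Gfap* was 0.27 in females and 0.25 in males, larger than that of 96.8% of 4440 and 97.4% of 4516 genes with a mean of at least 50 CPM, whose median SD was 0.09 and 0.08. The other 7 markers had SDs of 0.12 to 0.18 in females and 0.08 to 0.12 in males. Across libraries, after removal of group means, the Pearson correlation of *Gfap* with the other markers had a median of 0.24 in females (16 libraries) and 0.37 in males (17 libraries), whereas that among the other 7 (21 pairs) had a median of 0.67 and 0.50. *Gfap* was closest to *Aqp4*, with 0.71 and 0.52, and had -0.06 and -0.09 with *Slc1a2*. *Slc1a2* and *Aldoc* had 0.91 and 0.61, and *Aldh1l1* and *Aldoc* had 0.79 and 0.87. These correlations are descriptions without a test, and the points share the tissue pieces and the total of their library.

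Set against the other markers in the same library, *Gfap* made up 18.3 ± 4.57 CPM per 1000 CPM of the other 7 in the female air group, 20.4 ± 4.22 with nicotine and 27.3 ± 3.33 with no nicotine. In males this share was 20.1 ± 2.70, 24.1 ± 4.87 and 19.9 ± 3.46. The summed level of the other 7 markers was 13228 ± 1344 CPM in female air and 12563 ± 1336 in females without nicotine, and most of that sum is *Slc1a2*. In that comparison *Slc1a2* had a log2 value of -0.14, and the 6 others had values from 0.004 (*Aqp4*) to 0.18 (*Gja1*), none past the threshold.

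The genes most like *Gfap* across all libraries, by the lower of the female and male Pearson correlations of log2 CPM among 11323 genes with a mean of at least 5 CPM in both tables, were *Nr2f2* (0.76), *Gdpd2* (0.75), *Smoc1* (0.72), *Tshz2* (0.71) and *Fndc1* (0.70). *Nr2f2* encodes the nuclear receptor COUP-TFII and *Tshz2* a zinc finger protein, while *Smoc1* encodes a secreted matrix protein. For the other markers the closest genes were *Wiz* for *Aqp4* (0.77), *Pcdhgc3* for *Slc1a3* (0.86), *Cbx6* for *Slc1a2* (0.92), *Paqr8* for *Aldh1l1* (0.78), *Apoe* for *Gja1* (0.90), *Slc39a12* for *Aldoc* (0.79) and *Abhd3* for *S100b* (0.86). None of the 5 genes nearest to *Gfap* was nearest to another marker.

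Other genes of astrocytes did change, in the comparison without nicotine. Of 63 further astrocyte genes in 4 lists (transporters and channels, cell contact and receptors, lipid and metabolic genes, and regulators), 62 were tested. These lists and those below were chosen with earlier results of these data known, so the counts describe and do not test. Without nicotine, edgeR called 9 higher and 3 lower in females and 18 higher and 2 lower in males, where the background was 5.03% higher and 7.03% lower in females and 6.15% higher and 7.47% lower in males. With nicotine, 2 were higher and 0 lower in females (background 1.98% and 2.32%) and none was called in males, where 21 of the 62 had an unadjusted p below 0.05 (14.4% of all genes) and DESeq2 called 3 higher and 1 lower (1.04% of all genes in either direction). Without male nicotine replicate 21, 0 were called with nicotine, and 17 higher and 2 lower without nicotine. The median log2 value over the 62 was 0.12 without nicotine in both tables, against 0.009 in females and 0.02 in males over all genes.

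The 8 genes called higher without nicotine in both tables were *Agt*, *Sparc*, *Slc6a11*, *Slc6a9*, *Slc7a10*, *Slc4a4*, *Ntsr2* and *Gabrg1*, that is 8 of the 9 in females and 8 of the 18 in males. The share of all genes called higher in both tables is not given here. Genes of other cells, named below, were also called higher in both. *Agt*, the angiotensinogen gene, rose by 1.88 in females (SE 0.34), from 45.2 ± 23.2 CPM in air to 166 ± 64.1, and by 1.52 in males (SE 0.27), from 42.5 ± 19.4 to 122 ± 35.4. *Sparc*, which encodes a secreted matrix protein, rose by 0.87 and 0.79. *Slc6a11*, the GABA transporter GAT-3, rose by 0.88 and 0.74, from 421 ± 73.4 to 772 ± 182 CPM in females and from 433 ± 47.5 to 721 ± 132 in males. *Slc6a9*, the glycine transporter GlyT1, rose by 0.83 and 0.69, and also in females with nicotine, by 0.60. The regulator *Rorb*, a nuclear receptor that neurons of the cortex also express, fell in both tables, by 0.63 in females and 0.35 in males.

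Among the others past the threshold in males alone were the metallothionein genes *Mt1* (0.29), *Mt2* (0.55) and *Mt3* (0.20), the potassium channel gene *Kcnj10* (0.38), the endothelin receptor gene *Ednrb* (0.39) and the second connexin gene of astrocytes, *Gjb6* (0.40), beside *Mlc1* (0.24), *Cst3* (0.26) and *Hepacam* (0.18). *Id2*, a regulator of differentiation, fell by 0.40 in males. In females *Megf11* rose by 0.30, *Nfib* fell by 0.32 and *Grm3*, a metabotropic glutamate receptor gene, fell by 0.36 without nicotine, and *Id4* rose by 0.33 with nicotine. Whether any of the 62 genes changed differently in the sexes was tested, and edgeR called 0 for either exposure, with an unadjusted p below 0.05 for 3 of them with nicotine and 1 without.

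**Figure D4:**
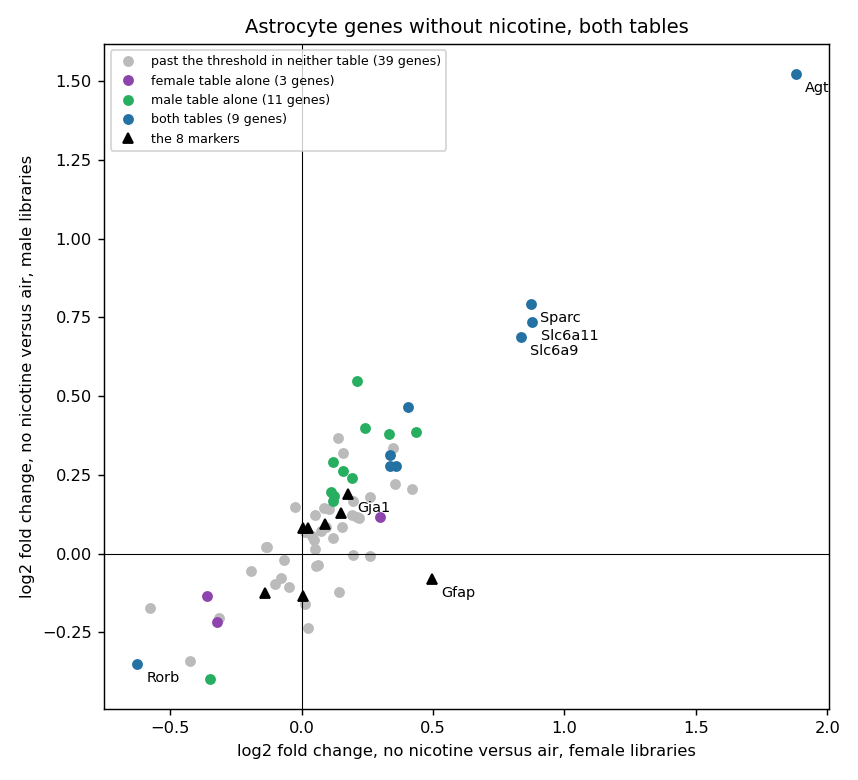
Log2 fold change without nicotine against air in females (horizontal axis) and males (vertical axis) for the 62 further astrocyte genes (circles, coloured by whether edgeR called them in neither, 1 or both tables) and the 8 markers (triangles). *Agt* lies at 1.88 and 1.52, 39 genes are past the threshold in neither table, and *Gfap* is the marker to the right of the others, at 0.50 and -0.08.

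Genes known to rise in reactive astrocytes were called about as often as all genes in the comparisons without nicotine. Of 36 genes in 3 lists (general, after inflammation, after ischaemia), 31 were tested. Without nicotine 2 rose and 1 fell in females (5.03% and 7.03% of all genes) and 2 rose and 2 fell in males (6.15% and 7.47%). Without 1 library at a time the number higher in females ran from 0 (without air replicate 2, 5 or 6 or no nicotine replicate 2, 3 or 5) to 2, with 1 without air replicate 3 or 4, and that in males from 2 to 3 (without no nicotine replicate 4). The number lower in males was 2 without nicotine replicate 16, 17, 19 or 22 or no nicotine replicate 4 and 1 on removal of any other single library. With nicotine none passed the threshold of edgeR, which called 4.29% of all genes in females and 0% in males. DESeq2 also called none of them with nicotine, against 8.7% and 1.04% of all genes. An unadjusted p below 0.05 was found there for 3 of the 31 in females (28.1% of all genes) and 9 in males (14.4%). *Serpina3n*, a protease inhibitor gene of the general list, rose without nicotine by 0.67 in females and 0.49 in males, from a range of 7.77 to 10.3 CPM in air to 9.86 to 17.7 CPM in females and from 7.76 to 11.9 CPM to 11.6 to 14.7 CPM in males. *Amigo2*, an adhesion gene of the inflammation list that some neurons also express, rose by 0.91 and 0.83. *Ptgs2*, the cyclooxygenase-2 gene of the ischaemia list that is also induced by activity in cortical neurons, fell by 0.91 in females and 0.92 in males, and *S100a10* fell by 0.32 in males. The median over the 31 was 0.10 in females and 0.004 in males without nicotine.

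Of the 9 intermediate filament genes other than *Gfap*, *Synm*, which encodes a filament partner of GFAP and vimentin, fell without nicotine by 0.37 in females and 0.34 in males. *Vim*, the vimentin gene, did not pass the threshold, with values of 0.17 (edgeR adjusted p = 0.259) in females and 0.14 (adjusted p = 0.512) in males without nicotine. The neuronal filament gene *Nefh* rose by 0.45 in males without nicotine. In females its values missed the threshold, with 0.51 without nicotine (edgeR adjusted p = 0.0130) and 0.51 with nicotine (adjusted p = 0.0255).

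The calls among the further astrocyte genes varied with single libraries, and at most 1 gene was called higher with a marker score as a covariate. Without 1 library at a time, the number higher without nicotine ran from 4 to 12 in females, with 4 without no nicotine replicate 3 and 5 without no nicotine replicate 2, and from 13 to 18 in males. The number lower ran from 1 (without no nicotine replicate 3 or 5) to 6 (without no nicotine replicate 1) in females and from 1 (without air replicate 30, 31 or 38 or no nicotine replicate 2, 3 or 4) to 4 (without no nicotine replicate 7) in males. The female number higher under nicotine ran from 0, without air replicate 2, 4, 5 or 6 or nicotine replicate 1 or 2, to 5 without air replicate 1. With the cortical neuron score of each library as a covariate 0 were called higher in either sex, and with the myelin score 0 in females and 1 in males. Both scores differ between the groups, and over all tested genes the same fits called 0 in females and 13 and 74 in males. A call lost in these fits therefore does not show that the difference went away. These runs over the lists were chosen after seeing the data.

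Markers of other cells moved with the exposure beside the astrocyte genes. Of 12 myelin and oligodendrocyte genes, all present in every library, 11 were higher without nicotine and 12 with nicotine in females, 10 without and 0 with nicotine in males. Over all genes edgeR called 12.1% and 4.29% in females and 13.6% and 0% in males in these comparisons, in either direction. The summed level of the myelin list ran from 8908 to 10790 CPM in female air, from 11991 to 18112 in females without nicotine, from 10274 to 12645 in male air and from 14996 to 25661 in males without nicotine. Of 14 cortical glutamatergic neuron genes, none at 0 in any library, 12 were lower in females and 11 in males without nicotine, 2 in females with nicotine and 0 in males with nicotine. Their sum ran from 3356 to 4227 CPM in female air and from 1436 to 3174 in females without nicotine. Of 8 tested genes of subcortical neurons, 6 were higher in females and 5 in males without nicotine, and 5 in females with nicotine. Of 10 genes of striatal projection neurons, 2 were higher in females and 3 in males without nicotine, *Isl1* and *Tac1* in both, and 4 in females with nicotine. Of 7 genes of oligodendrocyte precursors, 4 were higher without nicotine in each sex, the regulators *Olig1*, *Olig2* and *Sox10* in both, and 2 in females with nicotine. *Pdgfra* (0.11 in females and 0.02 in males) and *Cspg4* (0.12 and 0.02) of that list were not called without nicotine. Of 9 genes of radial glia and progenitors *Sox1* was called, higher without nicotine in both sexes (0.72 and 0.49) and in females with nicotine (0.62). Microglial (10 genes) and endothelial and pericyte lists (9 genes) had 0 genes called in any comparison, with at most 3 at an unadjusted p below 0.05, a p that up to 36.4% of all genes had. The part of these shifts in the *Gfap*, *Gja1* and further astrocyte values was not tested beyond the covariates above.

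Meningeal markers of the brain surface, where *Gfap* is high, and separate markers of choroid plexus and ependyma were checked. Of the 7 meningeal genes, none was called in any comparison, where edgeR called from 0% to 13.6% of all genes. The sum of the 7 ran from 139 to 260 CPM in female air and from 142 to 239 in females without nicotine. Of the 9 choroid plexus and ependymal genes, 8 were tested. In males without nicotine 3 of them were higher (6.15% of all genes), *Ttr* by 5.28 (SE 1.36, edgeR adjusted p = 0.00839), *Foxj1* by 0.63 (adjusted p = 0.000494) and *Rarres2* by 0.47 (adjusted p = 0.00770), and in the other comparisons 0 were called. Their sum reached 318 CPM in female air replicate 3, the air library with the highest *Gfap*, and 268 in female no nicotine replicate 3, against 17.4 at the lowest. It reached 933 in male no nicotine replicate 7, against 16.5 at the lowest in male air. *Folr1* and *Tmem212* of that list had no count in some female libraries. Without female no nicotine replicate 3 the *Gfap* value against air was 0.52 (edgeR adjusted p = 0.0284), and without male no nicotine replicate 7 the *Gja1* value was 0.19 (adjusted p = 0.0303).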

How the data were processed

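The authors deposited 2 tables of raw read counts per gene, 1 per sex. Per the study's methods, Bowtie aligned single reads to the mouse transcriptome (mm9), SAMtools removed PCR duplicates and HTSeq counted the reads. Removal of reads with the same start can lower the counts of abundant genes such as *Slc1a2*. The tables of normalized counts were not used here. Of the count columns, 1 matched no sample and was left out, and 4 rows of each table share a symbol that reads as a date.

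The 8 markers and all gene lists were chosen with earlier results of these data known. Genes with a CPM summed over the table of at least 5 were tested with edgeR 4.0.16 (quasi-likelihood test, TMM normalization, the 3 groups of a table in 1 fit, no covariate), with Benjamini-Hochberg adjustment over all tested genes and a call at an adjusted p below 0.01. Male minus female changes were tested in 1 fit of the 6 groups. CPM were TMM-normalized, and log2 CPM had a prior count of 1. Named genes are the 8 markers, up to 3 per direction and list with the smallest p, and the genes most like each marker. Further called genes of the astrocyte lists were named after their values were seen.

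The alternatives were DESeq2 1.42.0, limma-voom (limma 3.58.1) with sample quality weights, 2 other normalizations, no filter and a stricter filter (1 CPM in 5 libraries), the 2 groups compared alone, marker scores as covariates, a replicate block for the female libraries, and each library left out. The code was tested on simulated data. Gene models and promoters came from the mm9 genome and its annotation. R 4.3.3, Python 3.11.15, pandas 2.3.3 and matplotlib 3.10.9 were used.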

Additional observations from a re-analysis of the deposited data

Results flagged for a closer look

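Single libraries stood far from the others of their group, by the gap to the nearest library as a share of the group's range (Dixon's 95% limit), in 6 of the 48 combinations of marker and group. Chance alone flags about 1 in 20. *Gfap* was low in male nicotine replicate 19, with 183 CPM against 289 to 341 in the other libraries, and high in male no nicotine replicate 3, with 303 against 229 to 246. *Aqp4* was high in female nicotine replicate 6, with 573 against 424 to 465.7, and in female no nicotine replicate 1, with 563 against 443 to 478. *S100b* was high in male air replicate 33, with 199.97 against 184 to 189, and *Gja1* in male nicotine replicate 15, with 667 against 575 to 607. The causes were not tested.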

How the results depend on the processing

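Of 1254 marker values under alternatives, 1247 kept their side of the threshold without a reversal, 6 became called and 1 was reversed. The reversed one was *Aqp4* in males without nicotine, 0.047 with the cortical neuron score as a covariate. For females without nicotine, 1 of the 8 markers was called with DESeq2 (*Gfap*, 0.49) and 1 with limma-voom (*Gfap*, 0.54), and leaving out 1 library gave 0 to 1 called and *Gfap* values of 0.40 to 0.60. For males without nicotine, 1 was called with DESeq2 (*Gja1*), and leaving out 1 library gave 0 to 1. Over the other alternatives the female *Gfap* value without nicotine ran from 0.15 (cortical neuron score as a covariate) to 0.73 (myelin score), with adjusted p from 0.00512 to 0.932. The causes were not tested. Within the 1247, 72 values changed sign with no unadjusted p below 0.05, the largest of size 0.27, among them *Gfap* in females with nicotine (-0.19 with the cortical neuron score). Every marker had over 1000 counts per library, and the intervals cover the spread between libraries.

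The replicate numbers of the female titles pair no samples by the labels. Of 14 pairs with the same number, the correlation of deviations ran from -0.43 to 0.42, with 5 over 0.1, and 5 of 16 libraries correlated best with their own number. With the replicate block, *Gfap* in females without nicotine was 0.54 (adjusted p = 0.0346), and 0 markers were called in each female comparison.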
